A study of Homo sapiens with 6 samples.

Results

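The cathepsins examined here are 10 proteases, of 19432 genes with a probe, CTSA, CTSB, CTSC, CTSD, CTSH, CTSK, CTSL, CTSS, CTSV and CTSZ, measured in HuCCT1, a human cell line established from cholangiocarcinoma, a cancer of the bile ducts. All probes annotated to these genes were taken, 17 of the 27988 probes with a gene symbol, and 15 of them, from 8 genes, were tested because they were detected on at least 3 of the 6 arrays (detection p under 0.05, against the negative controls of the array). Mock cells overexpressed the empty vector, and the other cells, a stable line, were labelled as overexpressing WTAP, a protein that helps to place m6A methyl marks on messenger RNA. Each group had 3 single-colour Illumina bead arrays of total RNA, titled p4, p5 and p6 and numbered 4, 5 and 6 here. The meaning of the letter and number is not given. Both groups share the line, the serum-containing medium and the extraction kit, and the labels do not say whether a line is 1 clone or a pool. Nor do they name separate cultures, so the p-values measure only how far these arrays scatter, which may be technical.

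Cathepsins are made as inactive precursors, tagged with mannose 6-phosphate in the Golgi apparatus and carried to the lysosome, where the acid pH and proteolytic trimming activate them. Most are cysteine proteases that cystatins hold in check, while CTSD is an aspartic and CTSA a serine enzyme. Tumour cells, those of the bile ducts included, can also secrete cathepsins, which then cut matrix proteins outside the cell.

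Between 15071 and 16307 of 29285 probes were detected on each array, and having 6 arrays limits the precision. Neither of the 2 tested WTAP probes rose in the cells labelled WTAP: the brighter read 9.84 ± 0.06 in mock cells and 9.90 ± 0.06 in the others (log2, SD, n = 3 each, adjusted p = 0.721 in limma), and 3 further ones were detected on 2 arrays at most. Every direction below therefore rests on the labels, and a change is the value in cells labelled WTAP less that in mock cells. A probe outside the cloned part of the gene would check nothing. All 7 epithelial and biliary markers (KRT7, KRT8, KRT18, KRT19, EPCAM, CDH1 and SOX9) were detected and none of them changed, and their summed signal was 143333.5 to 155977.5 on the mock arrays and 143104.5 to 154946.8 on those labelled WTAP. Of 9 macrophage markers 4 were detected (CD14, CD68, CSF1R and AIF1), none of which changed, and PTPRC, TYROBP, FCER1G and MRC1 were detected on no array. In RNA of whole cultures, fewer cells of a type and less RNA per cell cannot be told apart.

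Of the 15 tested cathepsin probes, 6 rose and 4 fell in the cells labelled WTAP (limma with Benjamini-Hochberg adjustment over all 15830 probes, adjusted p under 0.05). Of all probes 19.1% had changed, 9.63% upward and 9.44% downward. The rising probes belonged to CTSH, CTSB, CTSV and CTSD, and all the falling ones to CTSC. Counted through the brightest probe of each gene, 5 of 8 cathepsins had changed, 4 higher and 1 lower, where 19.3% of all genes had, 9.81% higher and 9.5% lower. The cathepsins were chosen with earlier results of these data known, so these counts are a description and no test of the family. CTSA, CTSL and CTSZ did not pass the test, and CTSK and CTSS were too dim for it. The median change of the 15 probes was -0.07 on the log2 scale and that of all probes was 0. Through the brightest probe of each gene, the median of the 8 cathepsins was 0.32 and that of all genes 0. In 12 of the 15 the values of the groups did not overlap, where 38.2% of all probes showed this. Fewer calls were made without some arrays: 6 probes were called without mock array 6, without array 4 labelled WTAP or without array 5 labelled WTAP, and 8 without mock array 4 or 5.

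**Figure D1:**
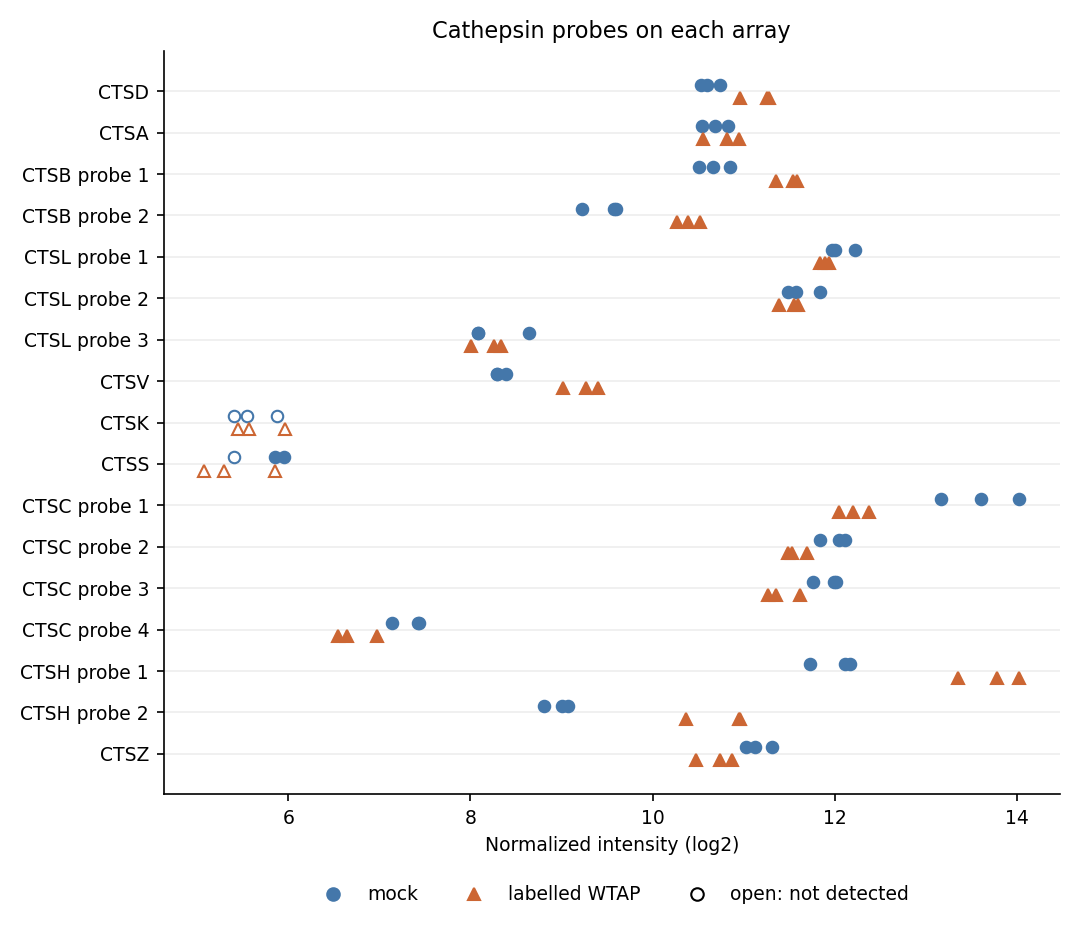
Normalized log2 intensity (horizontal axis) of the 17 cathepsin probes (rows), with circles for the 3 mock arrays, triangles for the 3 arrays labelled WTAP and open symbols where a probe was not detected. Probes of a gene are numbered from the brightest, and levels of different probes cannot be compared. The triangles lie to the right of the circles for CTSH, CTSB, CTSV and CTSD. They lie to the left for CTSC and CTSZ and, narrowly, for the brightest CTSL probe.

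CTSH, an aminopeptidase that trims peptides from their amino end and takes part in processing surfactant proteins in the lung, showed the largest change of the 8 tested genes. Its brighter probe (ILMN_2390853) read 12.17, 12.11 and 11.73 on the log2 scale on mock arrays 4, 5 and 6. On the arrays labelled WTAP it read 13.78, 14.02 and 13.35. The groups lay well apart, with the lowest value labelled WTAP above the highest mock value. It rose 3.28-fold (95% interval 2.41 to 4.47, limma adjusted p = 0.00116). Before normalization its mean signal went from 4421 ± 732 to 13464 ± 2761 (SD, n = 3 each). The second CTSH probe (ILMN_1752451) read 9.07, 9.01 and 8.81 in mock cells and 10.95, 10.96 and 10.37 in the cells labelled WTAP, a rise of 3.47-fold (interval 2.62 to 4.60, limma adjusted p = 0.000743). The changes of the 2 probes differed by 0.08 on the log2 scale (95% interval -0.23 to 0.39).

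CTSC, dipeptidyl peptidase I, which removes dipeptides and activates the granule serine proteases of immune cells, was the cathepsin that fell. Its brightest probe (ILMN_1792885) read 13.16, 13.60 and 14.02 on mock arrays 4, 5 and 6 and 12.20, 12.04 and 12.37 on the arrays labelled WTAP. The mock values were spread widely, and all of them lay above the values labelled WTAP. The fall was 2.62-fold (log2 change -1.39 ± 0.21, SE, limma adjusted p = 0.00421). The 3 other CTSC probes had smaller fitted falls. ILMN_1696347 fell by 0.43 (adjusted p = 0.0435), ILMN_2242463 fell by 0.51 (adjusted p = 0.0369) and ILMN_1689086, annotated to transcript NM_148170.2 where the others are annotated to NM_001814.2, fell by 0.60 (limma adjusted p = 0.0260). On each of these probes the groups did not overlap. Their calls depended on single arrays: those of ILMN_1696347 and ILMN_2242463 were lost without mock array 5 or 6 or without array 4 or 5 labelled WTAP (adjusted p = 0.0999 to 0.124), and that of ILMN_1689086 without mock array 4 or 6 or without array 4 or 5 labelled WTAP (limma adjusted p = 0.0761 to 0.0852). Without background correction ILMN_1689086, the dimmest, fell by 0.30 and stayed past the threshold.

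Whether the CTSC probes fell unequally was tested through the difference between each probe and the brightest, in a fit over all 3565 such pairs of all genes, of which 0.813% passed. Compared with the brightest, the dimmer 3 had changes higher by 0.96 (95% interval 0.56 to 1.36, ILMN_1696347), 0.88 (0.47 to 1.30, ILMN_2242463) and 0.79 (0.27 to 1.30, ILMN_1689086) on the log2 scale. The difference from the brightest probe was larger on every mock array than on any array labelled WTAP, but none of the 3 passed (limma adjusted p = 0.0578, 0.0790 and 0.168). Of the 7 cathepsin pairs 0 passed and 3, those of CTSC, had an unadjusted p under 0.05. All 3 passed with no background correction, with an offset of 50 and in the authors' processed table. What the CTSC probes read in different transcripts was not tested, as their positions are not used here.

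CTSZ, a carboxypeptidase that removes single residues from the carboxyl end, read 11.02, 11.31 and 11.12 in mock cells and 10.74, 10.87 and 10.47 in the cells labelled WTAP (ILMN_1666269). All values labelled WTAP lay below the mock values. The log2 change was -0.45 ± 0.14 (SE), with an adjusted p of 0.0594 in limma, and 0.0452 with the array number as a replicate block. It passed the threshold under 7 of 15 alternative settings.

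**Figure D2:**
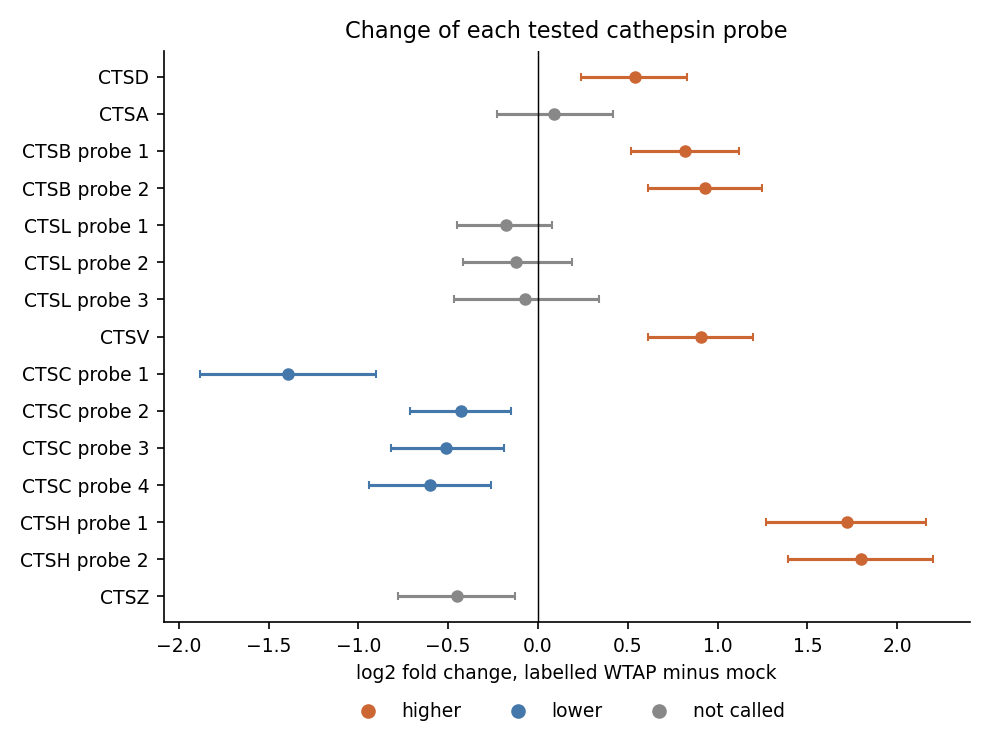
Log2 fold change (horizontal axis, arrays labelled WTAP minus mock arrays) of the 15 tested cathepsin probes, with 95% intervals from limma, coloured by whether the adjusted p passed 0.05. CTSH lies farthest to the right at 1.72 and 1.80, the brightest CTSC probe farthest to the left at -1.39, and the 3 CTSL intervals all include 0.

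CTSB, which cuts within proteins and also removes dipeptides from their carboxyl end, rose on both of its probes. The brighter (ILMN_2359742) read 10.51, 10.66 and 10.85 in mock cells and 11.54, 11.58 and 11.35 in the cells labelled WTAP. The second (ILMN_1696360) read 9.22, 9.57 and 9.60 against 10.39, 10.52 and 10.27. On neither probe did the groups overlap. The rises were 1.76-fold (interval 1.43 to 2.17, limma adjusted p = 0.00514) and 1.90-fold (interval 1.52 to 2.38, limma adjusted p = 0.00408), and the difference between them of 0.11 had a 95% interval of -0.18 to 0.40 on the log2 scale.

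CTSL, the widely expressed cathepsin L, and CTSV, its close paralog that is otherwise known from thymus, testis and cornea, both lie on chromosome 9. CTSV passed the test and CTSL did not. The CTSV probe (ILMN_1748352) read 8.29, 8.29 and 8.39 in mock cells and 9.27, 9.40 and 9.02 in the cells labelled WTAP. These groups were far apart for their narrow spread, and CTSV rose 1.87-fold (interval 1.53 to 2.30, limma adjusted p = 0.00316). The brightest CTSL probe (ILMN_2374036) read 11.97, 12.00 and 12.22 against 11.89, 11.93 and 11.84. The values labelled WTAP lay just below the mock values, and the fold of 0.882 had an interval of 0.733 to 1.06 (limma adjusted p = 0.319). The other CTSL probes, ILMN_1812995 and ILMN_1694757, had folds of 0.921 (interval 0.745 to 1.14) and 0.956 (0.721 to 1.27) with overlapping groups. Within each array the CTSV value less that of CTSL went from a mean of -3.75 ± 0.08 in mock cells to -2.66 ± 0.15 in the cells labelled WTAP (log2, SD, n = 3 each), a shift of 1.09. An exact two-sided permutation test of this shift gave p = 0.1, the smallest that 3 arrays against 3 allow. Near-identical stretches of such paralogs can cross-hybridise, and the probe sequences are not used here.

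The sequences before the start sites of this pair are shown because the genes are paralogs of which 1 passed the test. The 250 bases before each start, from RefSeq on GRCh38.p14, share 23 bases in an unbroken run, printed in capitals, which holds a CCAAT box and occurs in 2 of 35116 such windows, those of these genes. It lies at bases 96 to 74 before the CTSL start (chr9:87725869-87726118, plus strand) and at bases 86 to 64 before the CTSV start (chr9:97039143-97039392, minus strand).
CTSL: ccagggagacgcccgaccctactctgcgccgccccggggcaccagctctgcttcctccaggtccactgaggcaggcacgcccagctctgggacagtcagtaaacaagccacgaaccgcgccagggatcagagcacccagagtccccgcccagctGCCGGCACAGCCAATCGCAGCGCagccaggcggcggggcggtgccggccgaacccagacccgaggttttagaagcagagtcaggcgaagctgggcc
CTSV: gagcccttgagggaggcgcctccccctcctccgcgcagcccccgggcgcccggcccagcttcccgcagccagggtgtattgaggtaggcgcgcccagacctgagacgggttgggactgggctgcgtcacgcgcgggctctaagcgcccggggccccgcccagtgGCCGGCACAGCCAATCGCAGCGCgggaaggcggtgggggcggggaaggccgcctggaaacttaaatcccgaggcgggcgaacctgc
The CCAAT box, searched as CCAAT on both strands, was present in 32.0% of all windows and in 3 (CTSC, CTSL and CTSV) of the 7 cathepsin windows, as 7 of the 10 genes matched an entry. It was thus found in a gene that rose, in the gene that fell and in a gene that did not pass.

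CTSK, the collagen-cutting cathepsin of osteoclasts, and CTSS, which processes the invariant chain in antigen-presenting cells, each have 1 probe. CTSK (ILMN_1758895) was detected on 0 of 6 arrays, with signals of 156.6 to 188.1 before normalization, where the median probe of an array read 192.1 to 203.3. CTSS (ILMN_1743032) was detected on mock arrays 4 and 5 alone, with signals of 139.5 to 186.3 over the 6 arrays. Neither entered the test, and a difference between the groups was not detectable at these signals. No osteoclast marker on the arrays (CALCR and DCSTAMP) was detected on any array either.

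CTSD, the main aspartic protease of the lysosome, read 10.60, 10.74 and 10.53 in mock cells and 11.28, 11.25 and 10.96 in the cells labelled WTAP (ILMN_1674038). The groups did not overlap, and the rise was 1.45-fold (interval 1.18 to 1.78, limma adjusted p = 0.0241). The call was lost without mock array 4 or 6 or without array 4 or 5 labelled WTAP (limma adjusted p = 0.0657, 0.0713, 0.0837 and 0.0754). CTSA, a serine carboxypeptidase that also shields the glycosidases GLB1 and NEU1 in a complex, read 10.54, 10.68 and 10.83 against 10.82, 10.95 and 10.55 (ILMN_1719286). Here the groups overlapped, and the fold of 1.07 had an interval of 0.851 to 1.34 (limma adjusted p = 0.695). The log2 changes of its partners were 0.14 (GLB1, adjusted p = 0.472) and 0.00 (NEU1, limma adjusted p = 0.990). None of the complex's 3 members therefore passed the test.

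The windows of CTSD and CTSA are shown because they alone among the 7 cathepsin windows hold the letters CACGTG. This palindromic E-box, searched on both strands, is the core of the element through which TFEB and related factors act on lysosomal genes, and 6.34% of all windows hold it. It starts 47 bases before the start of CTSD (chr11:1763928-1764177, minus strand), and at 42 and at 25 bases before that of CTSA (chr20:45891085-45891334, plus strand).
CTSD: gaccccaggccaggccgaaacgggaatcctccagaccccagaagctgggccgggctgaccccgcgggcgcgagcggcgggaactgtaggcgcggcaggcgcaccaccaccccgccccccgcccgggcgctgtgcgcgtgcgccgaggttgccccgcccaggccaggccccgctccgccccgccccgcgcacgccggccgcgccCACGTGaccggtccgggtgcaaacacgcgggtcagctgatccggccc
CTSA: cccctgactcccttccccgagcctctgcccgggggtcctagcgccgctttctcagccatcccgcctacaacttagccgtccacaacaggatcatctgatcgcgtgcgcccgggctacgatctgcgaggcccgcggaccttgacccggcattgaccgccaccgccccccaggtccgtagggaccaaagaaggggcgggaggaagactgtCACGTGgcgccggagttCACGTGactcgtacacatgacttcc
Of these genes 1 rose and 1 did not pass. The TFEB probe was detected on no array. The related TFE3 had a log2 change of -0.36 (limma adjusted p = 0.0854), MITF of -0.24 (adjusted p = 0.270) and TFEC of 0.20 (limma adjusted p = 0.562). The GC box, searched as GGGCGG on both strands, was in all 7 cathepsin windows and in 42.6% of all windows. CTSB, CTSK and CTSS had no window, and whether any of these boxes bears on the changes was not tested.

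All 10 changed cathepsin probes shared a pattern among the arrays labelled WTAP. Array 6 of that group gave the value nearest to the mock mean on 10 of 10, the lowest of its group for CTSH, CTSB, CTSV and CTSD and the highest for CTSC. Over all 3019 changed probes the same array was the nearest on 45.4%. The 10 probes come from 5 genes and share their arrays, so they are not independent counts. Without this array 10 cathepsin probes were called, 6 higher and 4 lower. Among the mock arrays, array 4 was the nearest to the other group on 5 of the 10, array 5 on 2 and array 6 on 3.

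Genes near some cathepsins had changed in the same direction. The 50 tested genes nearest to CTSH on chromosome 15, from C15orf39 to ZNF592, had a median log2 change of 0.33, with 16 higher and 0 lower, where 9.81% of all genes were higher and 9.5% lower. CTSH, at 1.72, ranked 2 from the top among these 51 genes. Around CTSB on chromosome 8, from RPL23AP53 to REEP4, 15 of 50 genes had risen and 3 had fallen, the median was 0.10, and CTSB ranked 14. The changes were uneven along this stretch. MTMR9, FAM167A and NEIL2 had log2 changes of 0.988, 1.377 and 1.064, each above the 0.82 of CTSB. FHIP2B, NUDT18 and REEP4, at the end of the stretch, had -0.044, -0.002 and -0.251. CTSV ranked 2 in its stretch of chromosome 9 (NOL8 to TMEM38B, median 0.08), and CTSD ranked 5 on chromosome 11 (LRRC56 to HBG2, median -0.13). CTSC had the lowest value of its 51 genes (INTS4 to MAML2, median -0.01), while 5 of its 50 neighbours were higher and 4 lower, near the shares over all genes. After subtraction of the median of the neighbours on each array, the log2 change was 1.38 for CTSH (limma adjusted p = 0.00347), 0.63 for CTSB (0.0176), 0.80 for CTSV (0.00709), 0.67 for CTSD (0.0131) and -1.34 for CTSC (0.00911). All 5 stayed past the threshold through their brightest probe, and CTSC probes ILMN_1696347 and ILMN_2242463 did not (limma adjusted p = 0.116 and 0.0895). For CTSB the subtracted median lies between unlike parts of its stretch, so the subtraction cannot remove a shift of only part of it.

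**Figure D3:**
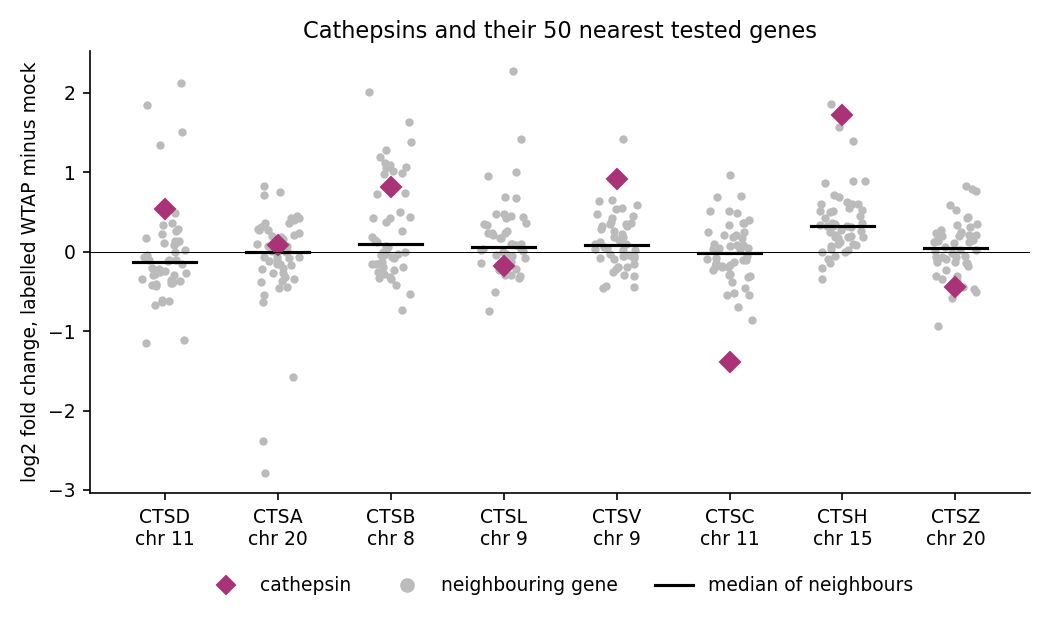
Log2 fold change (vertical axis, arrays labelled WTAP minus mock arrays) of the 8 tested cathepsins through their brightest probe (diamonds), of the 50 tested genes nearest to each along its chromosome (grey points) and of the median of those genes (black bars). The CTSH neighbours lie mostly above 0, with a median of 0.33, and CTSC lies below all of its neighbours.

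Of the inhibitors of cysteine cathepsins, 2 secreted cystatins of salivary type fell. CST1 fell by 1.59, from 8.41 ± 0.24 to 6.82 ± 0.43 (log2, SD, n = 3 each, limma adjusted p = 0.00283). CST4 fell by 1.49 (limma adjusted p = 0.00737), and its second probe fell by 1.38. CST2, of the same type, was detected on no mock array and on all 3 arrays labelled WTAP, with mean signals of 148.5 and 346.2 before normalization. It entered the test only through the arrays where it was bright, so its difference is given as a description with no test. The 3 genes resemble each other closely in sequence and a probe may bind the transcript of another, so that which of them differed is uncertain. The widely expressed inhibitors CSTB and CST3 had log2 changes of 0.03 (adjusted p = 0.865) and -0.03 (limma adjusted p = 0.916), and CST6, a cystatin of skin and other epithelia, of -0.10 (limma adjusted p = 0.629). Of 8 tested inhibitors 2 fell (9.5% of all genes did), 5 did not pass and CST2 is set apart as above, and the serpins SERPINB3, SERPINB4 and SERPINB13 were detected on no array. Of the 5 cathepsins outside the 10, 3 were tested (CTSE, CTSF and CTSO) and 0 passed in limma, 1 of them with an unadjusted p under 0.05, as 34.4% of all genes had. CTSF had the largest of these changes, 0.66 (limma adjusted p = 0.104).

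Other genes of the lysosome changed about as often as genes at large. Of 64 tested genes for sorting, other hydrolases, membrane proteins, the proton pump and lysosomal transcription factors, 7 rose and 5 fell, 18.8% of them beside 19.3% of all genes, and their median change was -0.02. Among 24 other hydrolases 5 rose and 1 fell, 25% of them beside 19.3% of all genes, of which 9.81% were higher and 9.5% lower. GAA, the glucosidase that breaks down glycogen, rose by 1.58 (limma adjusted p = 0.000982). Its second probe was detected on 1 mock array and on all 3 arrays labelled WTAP. The difference of that probe, 1.33, is given as a description with no test. LIPA, the acid lipase, rose by 0.92 (adjusted p = 0.00797), SCPEP1, a serine carboxypeptidase like CTSA, by 0.80 (adjusted p = 0.00492) and IDUA, the iduronidase, by 0.80 (limma adjusted p = 0.0119). GUSB, the glucuronidase, and GLA, the galactosidase, both named after their values were seen, had log2 changes of 0.52 (adjusted p = 0.0128) and -0.43 (limma adjusted p = 0.0292). Of 11 genes in the list of membrane proteins, which also holds the soluble NPC2, 27.3% were called through their brightest probes, beside 19.3% of all genes. LAMP1 rose by 0.66 (adjusted p = 0.00889), and CD63 fell by 0.52 (adjusted p = 0.0138). CTNS, the cystine carrier, fell by 0.42 (limma adjusted p = 0.0272), and its second probe, at -0.59 with overlapping groups, did not pass (limma adjusted p = 0.185). LAMP2 was not called through its brightest probe (0.00), but its probe ILMN_1752351 rose by 0.49 (limma adjusted p = 0.0178). The other detected LAMP2 probes did not pass.

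Of 10 tested sorting and processing genes, most of which deliver or mature the cathepsins, 1 rose and 1 fell, 20% beside 19.3% of all genes. GGA3, an adaptor that sorts mannose 6-phosphate receptors, rose by 0.47 (adjusted p = 0.0333), and PSAP, the saposin precursor, fell by 0.47 (limma adjusted p = 0.0348). Their second detected probes had the same direction but did not pass, with 0.35 for GGA3 (adjusted p = 0.0583) and -0.35 for PSAP (limma adjusted p = 0.151). The mannose 6-phosphate receptors M6PR and IGF2R had log2 changes of -0.27 (adjusted p = 0.155) and 0.01 (limma adjusted p = 0.967), and LGMN, a protease that processes cathepsin precursors, of 0.09 (limma adjusted p = 0.613). Of 16 tested subunits of the vacuolar ATPase, which acidifies the lysosome, ATP6V0C fell by 0.46 (limma adjusted p = 0.0210) and the other 15 did not pass. The share called was 6.25%, beside 19.3% of all genes. The calls of GLA, GUSB, CTNS, GGA3, PSAP and ATP6V0C were each lost without at least 1 array (limma adjusted p = 0.051 to 0.1). The count of 12 changed lysosomal genes was 6 without array 4 labelled WTAP and 7 without mock array 5 or without array 5 labelled WTAP. After subtraction of neighbouring genes 8 of the lysosomal genes were called in place of 12, and 4 calls were lost. LAMP1, on chromosome 13, then had a change of 0.08 (adjusted p = 0.706), PSAP, on chromosome 10, of -0.03 (adjusted p = 0.902), GLA, on the X chromosome, of -0.36 (adjusted p = 0.0678) and GGA3, on chromosome 17, of 0.18 (limma adjusted p = 0.375).

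**Figure D4:**
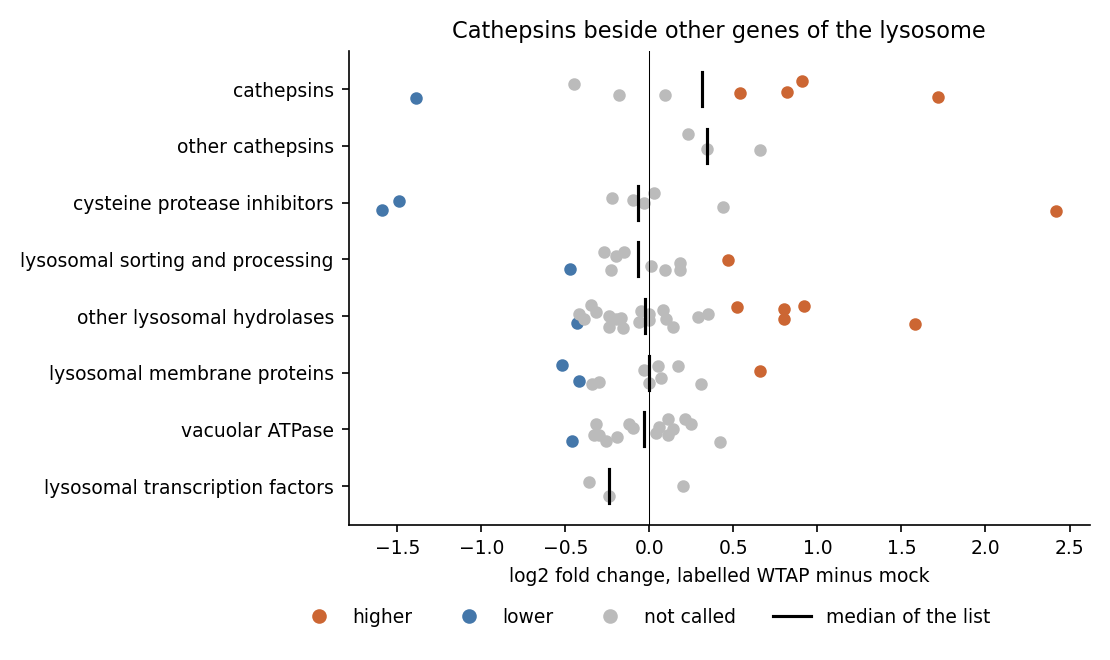
Log2 fold change (horizontal axis, arrays labelled WTAP minus mock arrays) of each tested gene, through its brightest probe, in the cathepsins and 7 other lists (rows), coloured by whether the adjusted p passed 0.05, with black bars at the medians. The point farthest to the right, CST2, is a fitted value of a gene detected on no mock array. Medians of the sorting, hydrolase, membrane and vacuolar ATPase lists lie near 0, that of the cathepsins at 0.32 and that of the other cathepsins at 0.34. Single genes lie farther out, among them CTSH at 1.72, CTSC at -1.39 and the hydrolase GAA at 1.58.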

How the data were processed

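The deposited tables hold raw probe intensity and its detection p-value, and intensity values that the authors processed, by quantile normalization as judged from the values. The submitters' processing notes name BeadStudio 3.3. Background treatment: not given in the sources used here. From the table before normalization (29377 probes), values were corrected and normalized by neqc (limma 3.58.1, R 4.3.3: normexp by detection p-value, offset 16, quantile, log2). The offset understates changes of dim genes. Probes detected (p under 0.05) on at least 3 arrays and present in both tables, 15830, were compared with lmFit and eBayes. The p-values were adjusted by Benjamini-Hochberg at 0.05. The fit was tested on simulated data with changes larger than that of any cathepsin, which does not show how smaller changes are recovered. Gene symbols came from the platform annotation, updated by gene ID from RefSeq on GRCh38.p14, which also gave gene order (1 probe per gene, 11586 genes) and promoter sequences.

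Every detected cathepsin probe is named. Of the other lists up to 4 changed genes with the largest change are named, together with cathepsin partners and inhibitors. Other genes were named after their values were seen. Members and lists were chosen with earlier results of these data known. Arrays of the same number deviated together (correlations across probes of deviations from the group means 0.13, 0.18 and 0.22 for numbers 4, 5 and 6, and -0.19 to 0.03 for other combinations), so the number was used as a block in an alternative. Only the sample titles give these numbers, without a meaning. The labels used here give no slide or scan.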

Additional observations from a re-analysis of the deposited data

How the results depend on the processing

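Under all 15 alternative settings run on each probe, the CTSH and CTSB probes, CTSV and the brightest CTSC probe kept their direction and stayed past the threshold, and CTSA and the 3 CTSL probes stayed short of it. CTSD kept its direction, with log2 changes of 0.48 to 0.67. For CTSB the subtraction of neighbouring genes, among these settings, cannot remove a shift of only part of its stretch. With 1 array left out, the count of changed cathepsin probes ranged from 6 to 10 (higher 5 to 6, lower 1 to 4), that of lysosomal genes from 6 to 11 and that of cathepsin probe pairs that disagreed from 0 to 1, with fewer samples in each fit. The 2 tested WTAP probes were called under none of the settings. Lower cathepsin probes numbered 2 in place of 4 with no filter on dim probes, which tests more probes, and 2 after subtraction of neighbouring genes. With 1 probe per gene and adjustment over genes, 5 cathepsins were called, fewer by construction than 10 probes.

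The count of disagreeing cathepsin probe pairs was 0, but 3 with no background correction, 3 with an offset of 50, 3 in the authors' processed table, 2 with detection on all 6 arrays and 1 with a trended and robust variance, and the cause was not tested. CTSZ passed under these 5 settings, with median scaling and with the replicate block (adjusted p = 0.0124 to 0.0452). The replicate block gave 11 cathepsin probes in place of 10 and 12 lysosomal genes, as without it, and changed no other cathepsin call. Without background correction the changes of dim genes were smaller: CST1 fell by 0.95, CST4 fell by 0.80, GAA had 0.91 and IDUA 0.54 on the log2 scale, all past the threshold, and the CST2 difference was 1.21 in place of 2.42. Lysosomal genes called numbered 18 in the authors' processed table and with a trended and robust variance, settings under which all probes called also went from 3019 to 3869 and 3905. The pair test was run neither with neighbouring genes subtracted nor without a filter. Signal over background limits CTSK and CTSS, which were too dim to test.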
